A study of Mus musculus with 9 samples.

Results

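The genes described are the transcription factors that mark the midbrain-hindbrain boundary of the embryonic brain: En1, En2, Gbx2, Pax2, Pax5, Pax8 and Egr2. They were read on the arrays through every probe set that the platform annotation assigns to exactly 1 of these 7 symbols. That gave 9 probe sets for 6 genes, of 18193 genes with such a probe set, and Pax2 was not analysed here. Of the 6 genes, 5 were bright enough to be tested, through 6 probe sets: En1, En2, Gbx2, Pax8 and Egr2. The arrays formed 3 groups of 3, each labelled as independent biological repeats from the mouse. The first group was DKK1-treated ESC-RPCs, retinal progenitor cells made from embryonic stem cells and kept for 1 day with 1 ng/ml of recombinant DKK1, which blocks Wnt signalling from outside the cell. The second was untreated ESC-RPCs, and the third was primary RPCs from the neural retina of C57 mice at postnatal day 1. Both ESC-RPC groups descend from 1 embryonic stem cell line, 46C, made by gene targeting in E14Tg2a.IV. Its cells formed embryoid bodies for 3 days with SB431542, an inhibitor of TGF-beta family receptors, and Sox1-positive cells (35.8%) were sorted on day 7. Both groups then grew in N2 medium with 10 µM DAPT, an inhibitor of Notch cleavage, and 20 ng/ml basic fibroblast growth factor. ESC-RPCs and primary RPCs therefore differ in line, source, age and culture together, and the parts of these factors in a difference between them cannot be told apart.

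The midbrain-hindbrain boundary, or isthmus, is a signalling centre of the embryonic neural tube that patterns the midbrain in front of it and the cerebellum and anterior hindbrain behind it. In the mouse it forms where Otx2, the factor of forebrain and midbrain, meets Gbx2, the homeodomain factor of the anterior hindbrain, each of which represses the other. The boundary cells secrete Fgf8 and Wnt1, and the paired-box factors Pax2, Pax5 and Pax8 and the engrailed homeodomain factors En1 and En2 maintain that secretion in a loop of mutual support. Wnt1 signalling keeps En1 on in this region. Egr2, also called Krox20, is a zinc finger factor of alternating hindbrain segments, the rhombomeres, that lie behind the boundary. None of these factors defines the neural retina, although Pax2 is a factor of the optic stalk and Egr2 is also an immediate early gene that responds to stimulation in many cells.

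The promoters of 3 members are shown because their probe sets carried the contrasts described below: En1 and Gbx2 for a higher level in ESC-RPCs, Egr2 for a higher level in primary RPCs. Each window runs from 250 bases before to 50 after a transcript start in RefSeq on GRCm38.p6, printed 5′ to 3′ on the strand of the gene. The RefSeq promoter table used here gave 1 window for En1, at chr1:120602237-120602536 on the plus strand. It gave 1 for Gbx2, at chr1:89931127-89931426 on the minus strand, and 5 for Egr2, of which the one at chr10:67537619-67537918 on the plus strand is printed. It lists 0 for En2. Capitals mark the only motif match in these windows.
En1: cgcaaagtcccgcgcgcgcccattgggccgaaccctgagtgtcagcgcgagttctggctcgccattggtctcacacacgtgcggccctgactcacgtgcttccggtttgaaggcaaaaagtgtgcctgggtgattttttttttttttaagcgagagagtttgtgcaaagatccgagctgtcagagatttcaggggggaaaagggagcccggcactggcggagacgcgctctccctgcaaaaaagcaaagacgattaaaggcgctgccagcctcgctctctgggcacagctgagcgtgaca
Gbx2: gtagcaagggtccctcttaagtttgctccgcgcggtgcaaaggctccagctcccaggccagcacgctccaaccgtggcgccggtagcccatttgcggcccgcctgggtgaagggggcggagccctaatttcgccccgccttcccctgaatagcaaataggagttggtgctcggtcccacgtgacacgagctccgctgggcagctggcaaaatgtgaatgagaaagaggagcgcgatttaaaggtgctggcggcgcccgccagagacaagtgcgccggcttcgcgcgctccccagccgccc
Egr2: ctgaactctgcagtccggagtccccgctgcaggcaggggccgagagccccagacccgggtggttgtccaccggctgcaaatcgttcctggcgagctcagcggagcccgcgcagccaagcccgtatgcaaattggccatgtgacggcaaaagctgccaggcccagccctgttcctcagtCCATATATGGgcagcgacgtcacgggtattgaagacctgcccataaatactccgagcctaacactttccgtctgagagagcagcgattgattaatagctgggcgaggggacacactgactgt

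A set of 3 motifs was searched on both strands of these windows and of all 32851 windows of the same length in the table. The capitals in the Egr2 window are CCATATATGG, a CArG box, the element that serum response factor binds in immediate early genes, whose 2 outer C and G pairs enclose a run of A and T. It begins at base -72 from the start and is its own reverse complement. A CArG box was present in 4 of the 5 Egr2 windows, of which 3 overlap and hold this same copy, and in 535 windows of the table, or 1.63% of them. The box was added to the search after the Egr2 sequence had been read, so the match is a description. The TCF/LEF core CTTTGAT, bound by the nuclear factors of Wnt signalling, occurred in 3.73% of windows and the homeodomain core TAATTA in 5.29%. Neither was present in the 3 windows printed, which says only that those letters are not in these bases.

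Values are MAS5 intensities, linear numbers that the authors' software made from the probes of each probe set, with every array scaled to a trimmed mean of 500. A probe set counts as above background here when it exceeds the 40th percentile of its own array, a level between 44.7 and 52.9. Of 8 neural progenitor markers chosen for the Sox1 sort, 3 were called higher and 2 lower in treated than in primary cells. In untreated cells 4 were called higher and 2 lower. Called means an adjusted p below 0.05 in the limma test given below. Here and below, counts of markers or list genes higher or lower than in primary cells are counts of calls. Of all genes, 52.8% were called between treated and primary cells and 53% between untreated and primary cells. A count near these shares says little about the genes counted. Sox1 itself was at 2886 ± 333 in DKK1-treated, 2831 ± 59.8 in untreated and 24.4 ± 16.5 in primary cells (SD, n = 3 each here and below). Of 10 retinal markers measured, 9 were lower in both ESC-RPC groups than in primary RPCs and 1 was higher. Of 11 with a probe set, 4 lay below background on every treated, 3 on every untreated and 0 on every primary array. Pax6, a factor of forebrain and eye, was above background on every array, at 1255 ± 210 in treated, 1323 ± 193 in untreated and 10035 ± 1063 in primary cells. Rax, the eye field factor, lay above background on 0 of 3 DKK1-treated, 1 of 3 untreated and 3 of 3 primary arrays. The ratio of 3-prime to 5-prime signal for Actb, which tracks RNA integrity, was 1.33 to 1.37 on DKK1-treated, 1.32 to 1.37 on untreated and 1.22 to 1.26 on primary arrays. Its part in any result was not tested.

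Set against primary RPCs, En1, En2, Gbx2 and Pax8 were higher and Egr2 was lower in both ESC-RPC groups. All 5 passed the test in each comparison, an adjusted p below 0.05 in a limma fit of 9 arrays with adjustment over 13320 genes. En1, En2 and Pax8 lay below background on every primary array, so only ESC-RPC arrays made them bright enough to be tested. Their calls as higher in ESC-RPCs are therefore a description. The background was large. Of all 13320 genes, 52.8% passed the same test between DKK1-treated and primary cells (26% higher, 26.8% lower), and 53% between untreated and primary cells (26.1% higher, 26.9% lower). The groups did not overlap for any of the 5 members in either comparison, while this held for 59.2% of all genes between DKK1-treated and primary cells and for 60% between untreated and primary cells. The 2 comparisons share the primary arrays. In bulk RNA such as this, fewer cells of a type and less RNA per cell cannot be told apart, so a level may come from a few cells or from all.

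**Figure D1:**
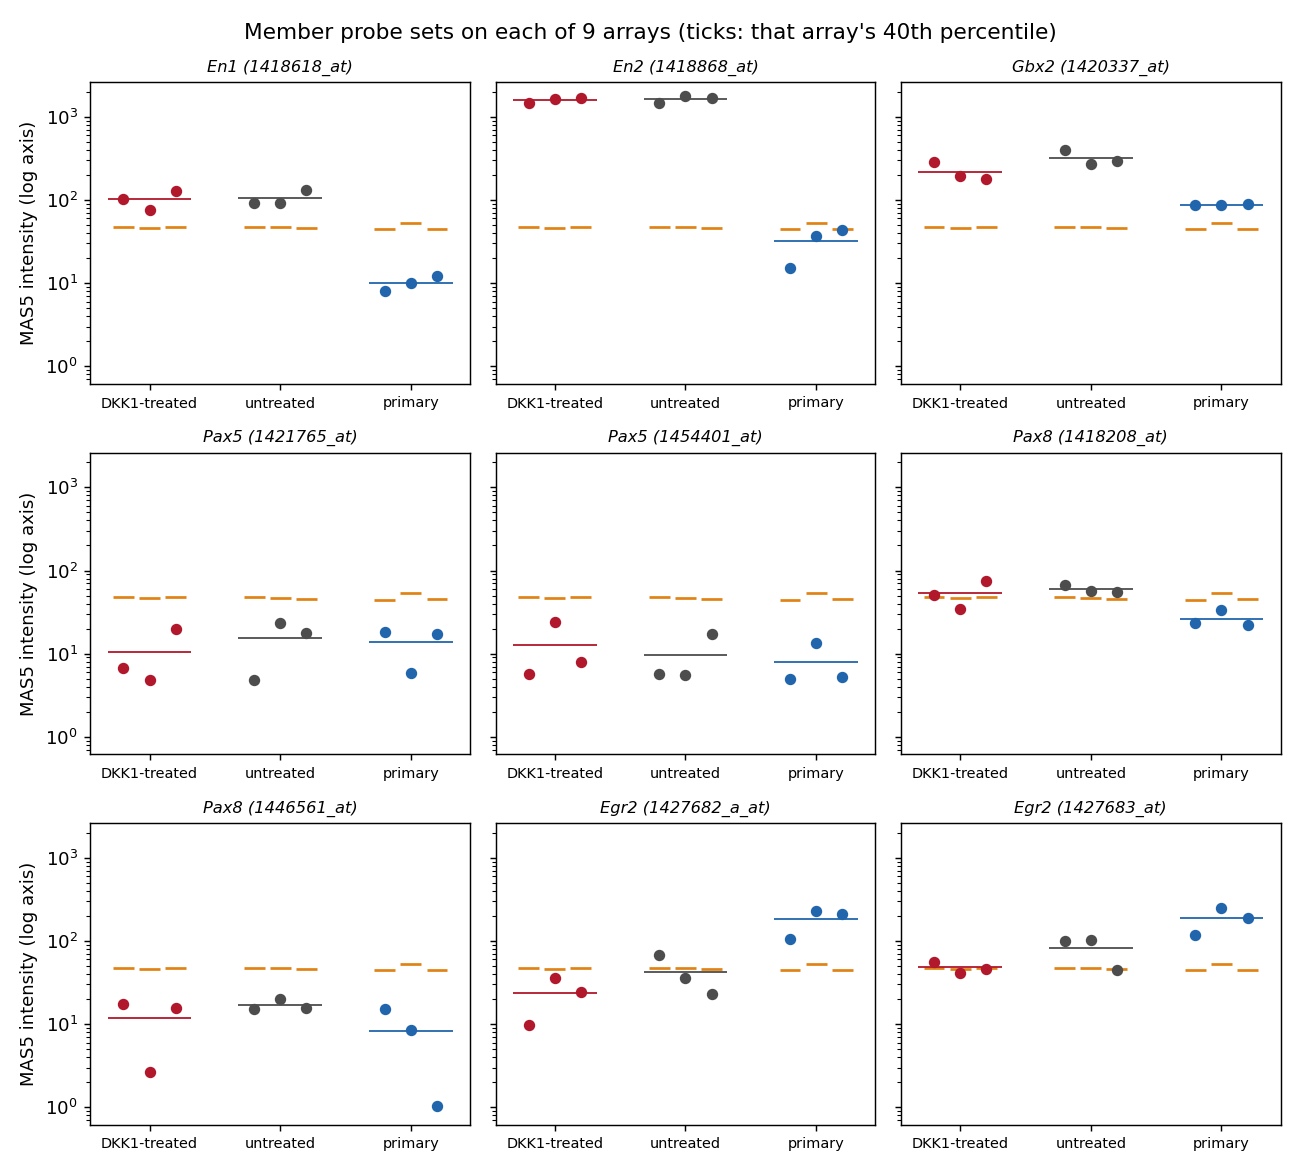
MAS5 intensity (log axis) of each of the 9 member probe sets on each array, with DKK1-treated ESC-RPCs in red, untreated ESC-RPCs in grey and primary RPCs in blue. Coloured lines are group means (n = 3 arrays) and orange ticks the 40th percentile of each array. En2 lies between 1460 and 1780 on all 6 ESC-RPC arrays and between 15.3 and 43.1 on the primary arrays, while both Egr2 probe sets are brightest on the primary arrays.

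En2, the engrailed factor that patterns the cerebellum, was bright in both ESC-RPC groups and below background in primary cells. Its intensity was 1463, 1629 and 1707 on the DKK1-treated arrays, 1460, 1780 and 1677 on the untreated arrays, and 15.3, 37.1 and 43.1 on the primary arrays. All 6 ESC-RPC arrays were bright, and no primary array rose above background. En2 was at least 33.7-fold higher in DKK1-treated than in primary cells (log2 difference 5.78 ± 0.31 SE, limma adjusted p = 2.04e-07) and at least 34.5-fold higher in untreated than in primary cells (5.81 ± 0.31, adjusted p = 1.95e-07). The bounds divide the mean of the ESC-RPC arrays by the percentile that marks background on the primary arrays, since the primary values themselves have no reliable level.

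En1, the engrailed factor needed to form the midbrain and cerebellum in the mouse, was also above background in both ESC-RPC groups and below it in primary cells. It measured 104, 76.4 and 127 on the DKK1-treated arrays, 93.0, 90.8 and 132 on the untreated arrays, and 8.13, 10.1 and 12.3 on the primary arrays. Every ESC-RPC array was above background and every primary array below it. En1 was at least 2.12-fold higher in DKK1-treated than in primary cells (log2 difference 3.32 ± 0.33, adjusted p = 1.76e-05) and at least 2.19-fold higher in untreated than in primary cells (3.37 ± 0.33, adjusted p = 1.61e-05).

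Gbx2 was above background in all 3 groups, so its differences are measured on both sides. Its intensity was 283, 197 and 179 on the DKK1-treated arrays, 396, 269 and 292 on the untreated arrays, and 87.4, 86.9 and 90.1 on the primary arrays. Both ESC-RPC groups lay wholly above the primary arrays, and they overlapped each other only where the highest treated array passed the lowest untreated array. The log2 difference from primary cells was 1.29 ± 0.21 for DKK1-treated cells (adjusted p = 0.000472), a fold of 2.44, and 1.84 ± 0.21 for untreated cells (adjusted p = 4.16e-05), a fold of 3.57. Gbx2 is also a factor of naive mouse pluripotent cells, and most markers of such cells were also higher in ESC-RPCs than in primary cells. Of 10 pluripotency markers, 9 were higher and 1 lower in each ESC-RPC group than in primary cells. Between DKK1-treated and untreated cells, where Gbx2 had a lower mean, 8 of these markers had a higher mean and 2 a lower one. There 0 of these markers were called. Their summed intensity was 21236 to 23454 on DKK1-treated, 18537 to 22754 on untreated and 1754 to 2932 on primary arrays. The largest part of the ESC-RPC sums was Dppa5a, at 10792.5 ± 651 in treated and 10411 ± 1243 in untreated cells. In primary cells it was Tbx3, the marker that was lower in ESC-RPCs, at 129 ± 53.7, 127 ± 36.3 and 1663 ± 394 in treated, untreated and primary cells. Nanog, a pluripotency homeodomain factor, measured 2331 ± 213 in DKK1-treated, 2103 ± 299 in untreated and 2.35 ± 0.558 in primary cells. Their part in the Gbx2 level was not tested.

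Pax8, a paired-box factor of the boundary and of the otic placode, kidney and thyroid, stayed close to background. The brighter of its 2 probe sets measured 50.7, 34.2 and 75.7 on the DKK1-treated arrays, 67.5, 56.6 and 55.2 on the untreated arrays, and 23.4, 33.8 and 21.9 on the primary arrays. It was above background on 2 of 3 treated, 3 of 3 untreated and 0 of 3 primary arrays, and the lowest treated array lay just above the highest primary array. Pax8 was at least 1.07-fold higher in DKK1-treated than in primary cells (log2 difference 0.97 ± 0.37, adjusted p = 0.0485) and at least 1.26-fold higher in untreated than in primary cells (1.20 ± 0.37, adjusted p = 0.02). The first call was lost without DKK1-treated replicate 1 (adjusted p = 0.104) or 3 (0.69, adjusted p = 0.188), primary replicate 1 (0.0985) or 3 (0.108), or any 1 of the untreated arrays (0.0664 to 0.0697). The second was lost without untreated replicate 1 (adjusted p = 0.0707). With values below background raised to it, neither held, at 0.25 for treated (adjusted p = 0.328) and 0.33 for untreated cells (adjusted p = 0.197).

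The second Pax8 probe set gave 2.69 to 17.3 on the treated, 15.3 to 20.1 on the untreated and 1.04 to 15.3 on the primary arrays. It was below background on all 9 arrays and was not tested. Among markers of the other tissues that use Pax8, Lhx1, a factor of kidney, cerebellum and other sites, measured 1814 ± 307, 1334 ± 236 and 46.4 ± 13.9 in DKK1-treated, untreated and primary cells. Of 8 markers of otic placode, kidney and thyroid that could be tested, 5 were called higher in each ESC-RPC group than in primary cells. Between untreated and primary cells 1 was called lower, and 0 were called lower between treated and primary cells. Their summed intensity over 12 genes was 4883 to 5223 on treated, 3859 to 4521 on untreated and 547 to 753 on primary arrays, with Tg, the thyroglobulin gene that defines thyroid, below background on every array. Their part in the Pax8 level was not tested.

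Pax5, a paired-box factor of the boundary and of B lymphocytes, was not above background on any array with either of its 2 probe sets. The first gave 4.82 to 19.8 on the DKK1-treated, 4.78 to 23.5 on the untreated and 5.85 to 18.0 on the primary arrays. The second gave 5.74 to 24.1 on the treated, 5.61 to 17.2 on the untreated and 4.97 to 13.5 on the primary arrays. The groups overlapped throughout, and no fold is given between values that all lie below background. Among B lymphocyte markers with a probe set, 7 in all, 6 lay below background on every treated, 5 on every untreated and 4 on every primary array, among them Cd79a, a part of the B cell receptor, on all 9 arrays. The 1 that could be tested, Ebf1, a factor of B cells and also of neurons, measured 1169 ± 104 in treated, 1130 ± 43.7 in untreated and 534 ± 143 in primary cells and was called higher in both ESC-RPC groups.

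Egr2 ran the other way. Its brighter probe set measured 56.0, 41.8 and 46.4 on the DKK1-treated arrays, 99.2, 104 and 45.2 on the untreated arrays, and 120, 251 and 191 on the primary arrays. Every primary array was above every ESC-RPC array, and only 1 of 3 treated and 2 of 3 untreated arrays passed background. The log2 difference from primary cells was -1.91 ± 0.37 for DKK1-treated cells (adjusted p = 0.00144) and -1.21 ± 0.37 for untreated cells (adjusted p = 0.018). The call for untreated cells was lost without untreated replicate 3, at -0.82 (adjusted p = 0.0629), or without primary replicate 2, at -0.96 (adjusted p = 0.0612).

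The other Egr2 probe set gave the same direction, with 9.79, 35.9 and 24.6 on the treated arrays, 67.2, 35.8 and 22.8 on the untreated arrays, and 105, 227 and 213 on the primary arrays. Here 0 treated, 1 untreated and 3 primary arrays were above background. In a fit of 24773 probe sets, where 48.7% of all passed between treated and primary cells and 48.8% between untreated and primary cells, it was at least 3.65-fold lower in treated cells (-3.06 ± 0.55, adjusted p = 0.000861). It was lower by a log2 difference of -2.18 ± 0.55 in untreated than in primary cells (adjusted p = 0.00689). Both probe sets therefore put primary cells above both ESC-RPC groups.

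**Figure D2:**
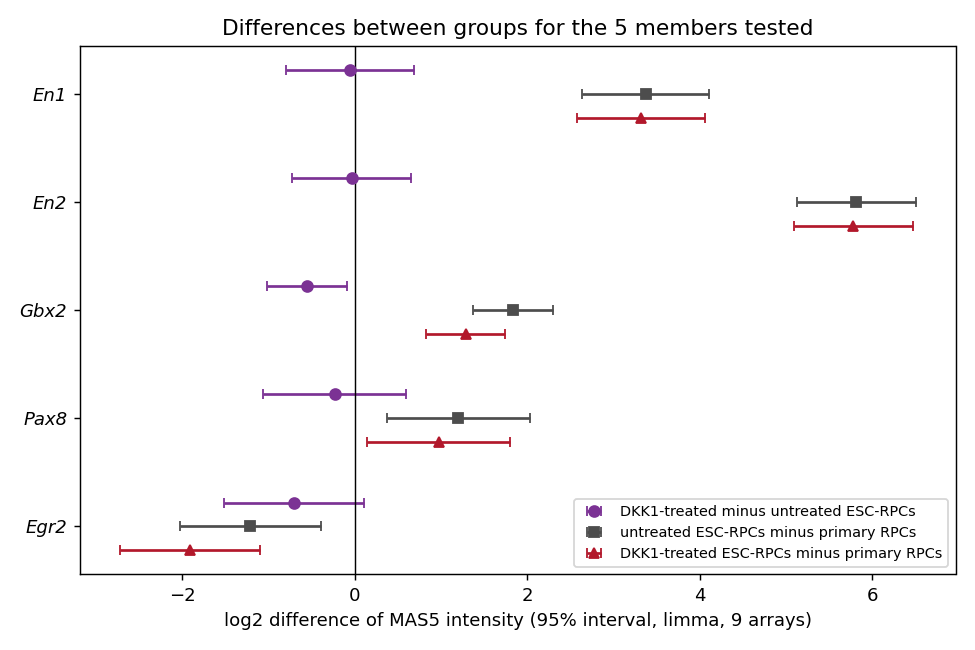
Log2 difference of MAS5 intensity between groups for the 5 members tested, with 95% intervals from limma on 9 arrays. Purple circles are DKK1-treated minus untreated ESC-RPCs, grey squares untreated ESC-RPCs minus primary RPCs, and red triangles DKK1-treated ESC-RPCs minus primary RPCs. En2 stands at 5.81 and 5.78 against primary cells and Egr2 at -1.21 and -1.91, while the purple intervals of En1, En2, Pax8 and Egr2 include 0.

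Genes of other settings in which Egr2 is known were read beside it. Of 11 other immediate early genes measured, 10 were called lower and 0 higher in each ESC-RPC group than in primary cells. Their median log2 difference was -1.30 for treated and -1.34 for untreated cells, against -0.0077 and -0.0068 over all genes. The summed intensity of the 12 listed was 5701 to 6027 on treated, 5106 to 5900 on untreated and 16753 to 19852 on primary arrays. Egr1, the close relative of Egr2, measured 480 ± 96.5 in treated, 542 ± 90.1 in untreated and 5798 ± 624 in primary cells. Fos, a partner in the AP-1 factor, measured 341 ± 45.5, 299.7 ± 66.8 and 4150 ± 1538 in the same order.

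Macrophages and Schwann cells can also express Egr2. Of 7 microglia and macrophage markers tested, 6 were called lower in treated and 4 in untreated than in primary cells, and 0 were called higher. All 7 had a lower mean in both ESC-RPC groups. Of the 9 listed, 7 were below background on every treated array, 7 on every untreated array and 1 on every primary array. Their summed intensity was 124 to 233 on treated, 182 to 254 on untreated and 926 to 1695 on primary arrays, with C1qb, a complement subunit, at 20.8 ± 4.07, 13.7 ± 2.64 and 175 ± 21.3. Of 8 neural crest and Schwann cell markers, 3 were called higher and 2 lower in each ESC-RPC group than in primary cells. Their sums ran from 3169 to 3399, 3260 to 3494 and 4822 to 5550 on treated, untreated and primary arrays. Tfap2b measured 1359 ± 245, 1476 ± 186 and 2856 ± 277 and Tfap2a 266 ± 65.1, 280 ± 57.7 and 1406 ± 230 in the same order. Foxd3, Twist1 and Erbb3 ran the other way, so the higher primary sum does not hold across the list. Sox10, which defines neural crest and Schwann cells, lay near background in all 3 groups, at 50.3 ± 23.2, 49.4 ± 15.1 and 50.6 ± 17.8. The part of these cells and of stimulation in the Egr2 level was not tested.

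The comparison of DKK1-treated with untreated ESC-RPCs asks what 1 day of this Wnt inhibitor did to the boundary factors. All 5 tested members had lower mean log2 levels after DKK1, where 50.5% of all genes did, and 0 of 5 passed the test, against 0% of 13320 genes. At an unadjusted p below 0.05 there were 308 genes, or 2.31%, and Gbx2 was the only member among them. The groups did not separate for any of the 5, while they did for 12% of all genes.

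Gbx2 had the clearest difference. The treated array was lower than the untreated array of the same replicate number in 3 of 3 pairs, by log2 differences of -0.48, -0.45 and -0.71, and 19% of all genes were lower in all 3 pairs. The difference over groups was -0.55 ± 0.21 (95% interval -1.01 to -0.086, limma adjusted p = 1), a fold of 0.684. Gbx2 thus failed the adjustment over all genes.

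Egr2 differed by -0.70 ± 0.37 (95% interval -1.52 to 0.11, limma adjusted p = 1). Its treated array was lower in the pairs numbered 1 and 2 and at almost the same level in the pair numbered 3 (46.4 treated, 45.2 untreated). When untreated replicate 3 was left out, the difference was -1.09. Its other probe set was lower in the pair numbered 1, at 9.79 treated and 67.2 untreated, and almost level in the other two, so the probe sets differ in which pairs show a decrease.

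The engrailed genes and Pax8 showed no difference beyond their spread. En1 differed by -0.050 ± 0.33 (95% interval -0.79 to 0.69), En2 by -0.033 ± 0.31 (-0.72 to 0.66) and Pax8 by -0.23 ± 0.37 (-1.06 to 0.60), each with a limma adjusted p of 1. These intervals come from the fit of all arrays, so they also carry the scatter of the primary arrays, where these genes lay below background. In a fit of the ESC-RPC arrays alone, with the replicate number as a block, En2 had an interval of -0.15 to 0.081. Those of En1 (-0.47 to 0.37) and Pax8 (-0.92 to 0.47) were wider. All these intervals leave room for a change in either direction, a small one for En2 in the blocked fit. Leaving out 1 array turned the sign of each gene's difference. En1 moved to 0.15 when DKK1-treated replicate 2 was left out and to 0.13 when untreated replicate 3 was. En2 moved to 0.030 when DKK1-treated replicate 1 was left out and to 0.029 when untreated replicate 2 was, and Pax8 to 0.058 when DKK1-treated replicate 2 was.

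**Figure D3:**
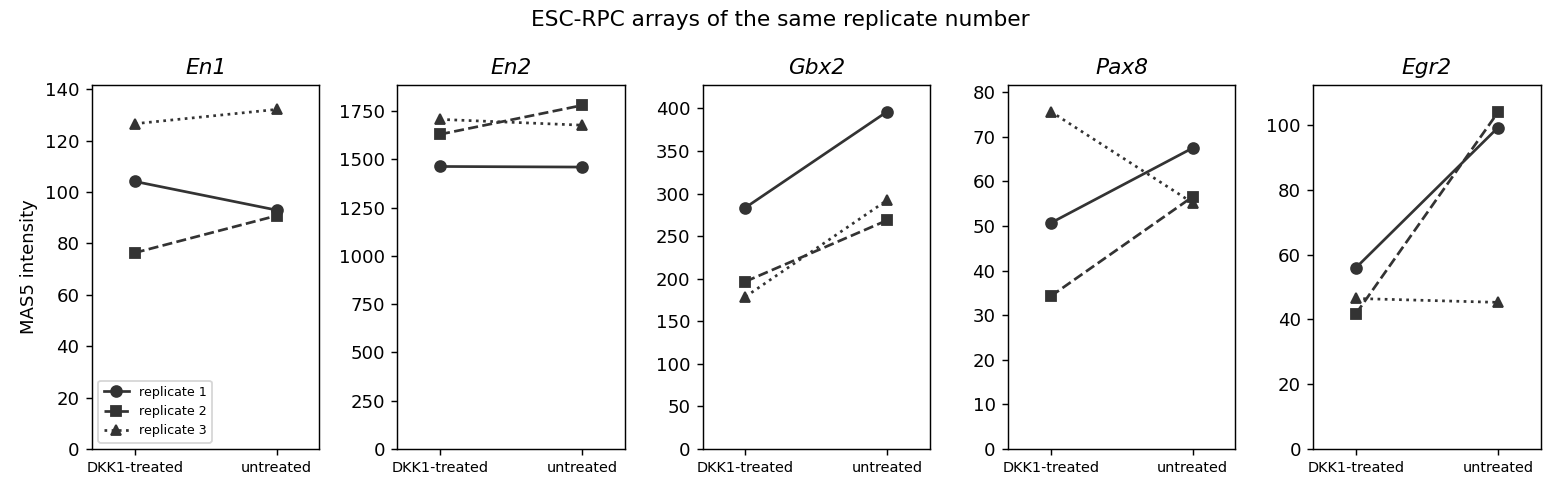
MAS5 intensity (linear axis from 0) of the 5 tested members in DKK1-treated and untreated ESC-RPCs, with a line joining the arrays of the same replicate number. Gbx2 is lower in the treated array of all 3 pairs, and no other member is lower in all 3.

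Arrays with the same number were treated as pairs because their values deviated together. In a limma fit of these 6 arrays with the number as a block, 65 genes passed, or 0.488%, against 0 in the fit of 9 arrays, and still 0 of the 5 members passed. There the standard error of Gbx2 was 0.11 (95% interval -0.80 to -0.30, adjusted p = 0.0719) and that of En2 was 0.051 (95% interval -0.15 to 0.081, adjusted p = 0.81). Gbx2 therefore came closest to the threshold without passing it.

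The genes around the members in the boundary network were read from 4 lists, chosen, like the members, with results of these data known. The first holds the boundary's secreted signals and their feedback genes, and 12 of its 16 genes were measured. Against primary cells 5 were higher and 5 lower in DKK1-treated cells, with a median log2 difference of 0.57, and 6 were higher and 5 lower in untreated cells, with a median of 0.80. With genes that were below background in 1 group placed at their bound, the medians were 0.41 and 0.74. Cnpy1, a boundary gene that supports FGF receptor maturation in zebrafish, measured 660 ± 17.6 in treated, 628 ± 78.3 in untreated and 24.2 ± 12.4 in primary cells, at least 13.9-fold and 13.2-fold higher. Fgf15, an FGF of midbrain and hindbrain progenitors, was higher by 1.27 ± 0.23 in treated and 1.52 ± 0.23 in untreated cells on the log2 scale. Wnt8b, a Wnt ligand of the dorsal brain, was at least 1.53-fold and 1.77-fold higher. Fgf17, a boundary FGF, passed in treated cells (1.44 ± 0.44, adjusted p = 0.0179) and missed in untreated cells (0.94 ± 0.44, adjusted p = 0.0948), while Fgf18, its close relative, missed in treated cells (0.77 ± 0.36, adjusted p = 0.0927) and passed in untreated cells (1.07 ± 0.36, adjusted p = 0.0284).

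Genes that FGF signalling induces were found on both sides. Il17rd, a membrane inhibitor of FGF signalling, was higher by 0.83 ± 0.14 in treated (adjusted p = 0.000527) and 0.96 ± 0.14 in untreated cells (adjusted p = 0.000206). Spry1, another inhibitor, passed in untreated cells (0.66 ± 0.20, adjusted p = 0.0188) and missed in treated cells (0.37 ± 0.20, adjusted p = 0.153). Dusp6, a phosphatase that acts on ERK, measured 973 ± 117 in treated, 999.9 ± 136 in untreated and 6143 ± 699 in primary cells, a log2 difference of -2.66 ± 0.13 and -2.62 ± 0.13. Etv4 and Etv5, ETS factors downstream of FGF, were at -1.48 and -0.40 in treated and -1.57 and -0.65 in untreated cells, and Spry4, an inhibitor of the same pathway, at -1.51 and -1.22. All 4 were lower and called in both comparisons. The 2 signals that define the boundary were too dim to test and are named although the naming rule does not cover them. Fgf8 lay below background on all ESC-RPC arrays and above it on 2 of 3 primary arrays, and Wnt1 passed it on 1 of 3 treated, 0 of 3 untreated and 0 of 3 primary arrays.

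Among partner and flanking factors, 15 of 17 were measured, with 9 higher and 3 lower in each ESC-RPC group than in primary cells. The median log2 differences were 1.82 for treated and 2.20 for untreated cells, or 0.56 and 0.97 with bounds. Pax3, a dorsal neural tube factor, measured 812 ± 153 in treated, 1241 ± 279 in untreated and 4.92 ± 4.97 in primary cells, at least 16.9-fold and 25.8-fold higher. Otx1, an Otx2 relative of forebrain and midbrain, was at least 19.6-fold and 19.1-fold higher, Sp8, a zinc finger factor that limits Fgf8 at the boundary in the mouse, at least 13.9-fold and 15.9-fold, and Pax7, a factor of the dorsal midbrain, at least 2.65-fold and 3.87-fold. Otx2, the anterior opponent of Gbx2, was lower, at 5694 ± 617 in treated, 5470 ± 689 in untreated and 15492 ± 3009 in primary cells. Pax6 and Six3, factors of forebrain and eye, were lower by log2 differences of -3.01 and -2.25 in treated and -2.93 and -2.79 in untreated cells. Gbx2 and Otx2 differed from primary cells in opposite directions, and both were above background on every array of each group. Otx2 is also among the retinal markers read here, and any link between the Gbx2 and Otx2 levels was not tested.

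Of 18 rhombomere and anterior Hox genes, 12 were measured, and 7 were higher and 3 lower in each ESC-RPC group than in primary cells, with medians of 1.81 for treated and 2.20 for untreated cells (0.78 and 0.88 with bounds). Hoxb1, the factor of a single rhombomere, measured 221 ± 90.5 in treated, 400.2 ± 46.7 in untreated and 5.65 ± 3.07 in primary cells, at least 4.42-fold and 8.41-fold higher. Hoxb2, a target of Egr2 in the mouse hindbrain, was at least 13.7-fold and 18.7-fold higher, and Hoxa2, another Egr2 target there, at least 5.70-fold and 7.56-fold. Hoxb3, a neighbour of Hoxb2 in the cluster, was at least 9.28-fold and 11.4-fold higher. Nab1 and Nab2, corepressors that bind EGR factors, were lower along with Egr2, by -0.79 ± 0.17 and -1.24 ± 0.27 in treated and -0.82 ± 0.17 and -1.22 ± 0.27 in untreated cells. Cyp26a1, an enzyme that degrades retinoic acid, was lower by -4.27 ± 0.20 and -4.30 ± 0.20, and Cyp26b1, a second such enzyme, was higher by 5.02 ± 0.49 and 5.15 ± 0.49. Egr2 differed from primary cells in the opposite direction to both named Hox targets, and its action on them in these cells was not tested.

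Genes of the midbrain and cerebellar fates that follow boundary patterning were mostly higher. Of 22, 17 were measured, and 13 were higher and 1 lower in each ESC-RPC group, with medians of 2.71 for treated and 2.54 for untreated cells (2.71 and 2.51 with bounds). Tal2, a factor of midbrain GABA neurons, measured 2673 ± 584 in treated, 2537 ± 708 in untreated and 30.9 ± 4.28 in primary cells, at least 55.6-fold and 52.2-fold higher. Gata3, which shares that lineage, was at least 19.5-fold and 14.2-fold higher, Lhx1 was higher by 5.32 ± 0.23 and 4.88 ± 0.23 on the log2 scale, and Ddc, an enzyme of dopamine and serotonin synthesis, by 5.07 ± 0.49 in both. Ptf1a, a factor of cerebellar GABA neurons and also of retinal amacrine and horizontal cells, was the 1 gene called lower, at 25.5 ± 23.3, 46.7 ± 11.2 and 1491 ± 239.

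**Figure D4:**
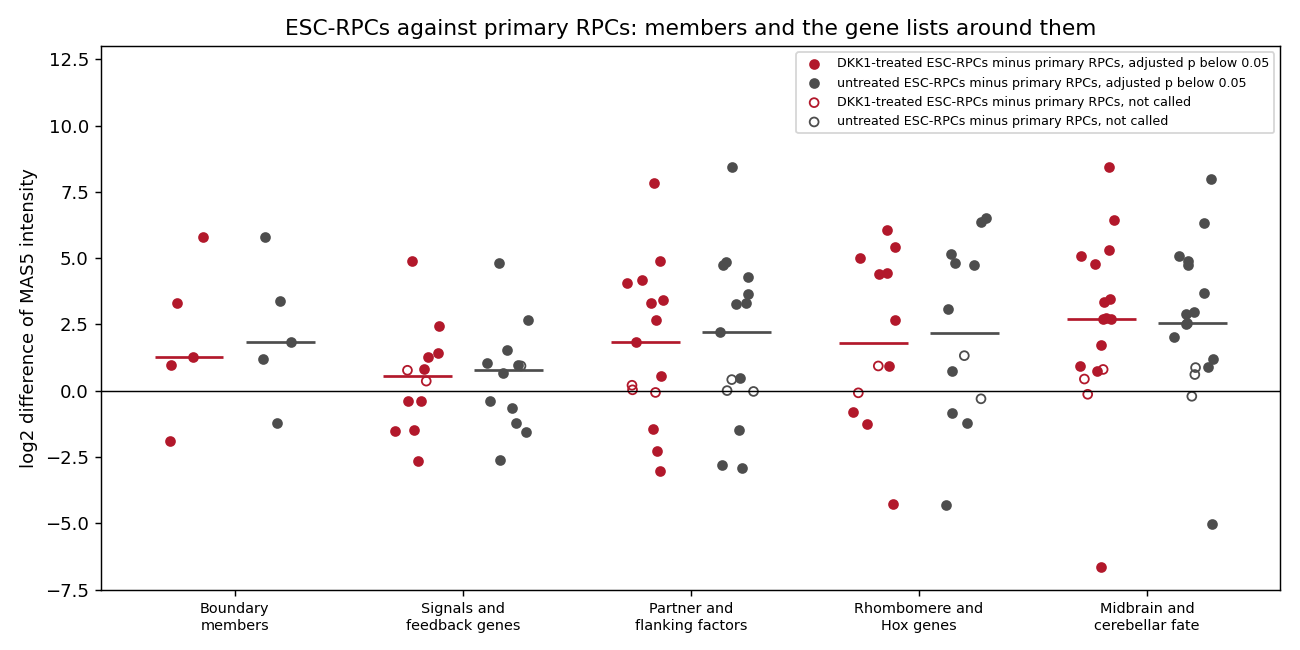
Log2 difference of MAS5 intensity against primary RPCs for the tested members and the measured genes of 4 boundary lists, with DKK1-treated ESC-RPCs in red and untreated ESC-RPCs in grey. Filled points passed the limma test, open points did not, and horizontal lines are medians over the genes of a list. The signal list has a median of 0.57 in treated and 0.80 in untreated cells, and the fate list 2.71 and 2.54.

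Between DKK1-treated and untreated cells 0 genes of any of the 4 lists passed in the fit of 9 arrays. The median log2 differences were -0.082 for the signals, -0.079 for the partners, -0.21 for the rhombomere genes and 0.038 for the fate genes, against -0.0018 over all genes. Of all list genes, 2 had an unadjusted limma p below 0.05. Irx3, an Iroquois factor of neural tube patterning, differed by -0.38 ± 0.17 and Etv5 by 0.26 ± 0.12, each with a limma adjusted p of 1. Hoxb1 differed by -0.93 ± 0.47, also with an adjusted p of 1. With the pairs as a block, over the 6 ESC-RPC arrays, the differences were equal, and 65 of 13320 genes passed in limma, or 0.488%. Among them were 6 list genes, where the 4 lists had 12, 15, 12 and 17 genes measured. Irx3 (adjusted p = 0.00602), Pax3 at -0.61 (0.00602), Fgf15 at -0.25 (0.037) and Hoxb1 (0.0461) were lower. Six3 at 0.53 (0.00602) and Lhx1 at 0.44 (0.011) were higher. The lists were chosen with results known and the pairing came from the values, so this count is a description.

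For each tested member the 3 genes with the most similar profile were found by the root mean square difference in log2 level over the 9 arrays, after each gene's own mean was subtracted. The likeness reflects mainly the gap between ESC-RPCs and primary RPCs, which these arrays share. For En1 they were Cdkn2a, a cell cycle inhibitor gene (0.156), Glra1, a glycine receptor subunit (0.201), and Nr5a2, a nuclear receptor (0.216). For En2 they were Ifitm1, an interferon-induced membrane protein (0.218), Acsbg1, an acyl-CoA synthetase (0.253), and Gdpd2, a phosphodiesterase (0.268). For Gbx2 they were Myo5b, a myosin motor (0.217), Mcph1, a gene of chromosome condensation (0.2498), and Axin2, a feedback inhibitor of Wnt signalling (0.2498). Axin2 measured 608 ± 39.7 in treated, 791 ± 34.1 in untreated and 245 ± 21.7 in primary cells. That is the order of groups of Gbx2, which its choice by likeness to Gbx2 makes likely, and any link between them was not tested. For Pax8 they were Xkr5 (0.178), Aanat, the enzyme that makes the precursor of melatonin (0.180), and A330048O09Rik (0.199). For Egr2 they were Pou4f1, a factor of retinal ganglion and sensory neurons (0.305), Eya2, a transcriptional coactivator (0.340), and Ahnak2 (0.346).

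Each member lay farther from the others than from its nearest genes, which follows from how those genes were picked. The closest pair was Gbx2 and Pax8, at 0.468, with 795 of 13320 genes nearer to Gbx2 than Pax8 was. En1 and En2 were 1.20 apart, with 1645 genes nearer to En1 than En2 was. Gbx2, at 0.937, and Pax8, at 1.11, lay nearer to En1 than En2 did. Egr2 was 1.33 from Pax8, its nearest member, with 11514 genes nearer to Egr2, and 3.50 from En2. En2 was 2.06 from Gbx2, with 929 genes nearer to En2, and 2.27 from Pax8.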

How the data were processed

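RNA was labelled as biotinylated cRNA and hybridised to Affymetrix 3-prime mouse arrays, 9 in all, with groups and replicate numbers taken from the labels. The deposited values are linear intensity values that the authors made with MAS5, per the submitters' processing notes, whose version and settings are not given in the sources used here. The trimmed mean (2% from each end) was 500 on every array. Of 45101 probe sets, 64 were controls, 932 matched several genes, 9160 had no gene listed and 34945 had 1 gene.

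Log2 values were used with no further normalisation. Probe sets above the 40th percentile of their own array on 3 or more arrays stayed in (29052, with 24773 of 1 gene), and the brightest stood for each of 13320 genes. limma 3.58.1 in R 4.3.3 fitted 1 mean per group to all 9 arrays (lmFit, then eBayes with an intensity trend), with two-sided moderated tests, Benjamini-Hochberg adjustment and a threshold of 0.05. Where all 3 arrays of a group lay under their percentile, folds use that percentile, or the value itself where higher, and read "at least". The scripts were checked on simulated data. Arrays give no read depth, and their number limits the precision, with a median standard error of 0.154 on the log2 scale.

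The members and lists were chosen with earlier results of these data known. From each list the text names called, non-overlapping genes with the largest differences, up to 4 per direction and comparison, up to 4 with the smallest p between treated and untreated cells, up to 4 markers per cell type and any marker that stands beside a result, and the 3 nearest genes of each member. For DKK1-treated against untreated arrays, deviations from the group means correlated across genes at 0.123, 0.195 and 0.318 where the numbers matched, and at -0.234 to 0.0681 where they did not, so matching numbers were treated as pairs. That pairing comes from the values, not from the labels. Same-number correlations with primary arrays lay between -0.0433 and -2.36e-06, and those arrays were not paired. Pax2 was not analysed here, and no gene coordinates are given because no build is given in the sources used here for the arrays; promoter positions are those of RefSeq on GRCm38.p6.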

Additional observations from a re-analysis of the deposited data

How the results depend on the processing

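The calls of En1, En2 and Gbx2 against primary cells held, with the same sign, in every alternative run that kept the gene, 18 for En1 and 19 each for En2 and Gbx2, and that of Egr2 between DKK1-treated and primary cells in 18 of 18 (-2.49 to -1.66). Of the 5 members called in each comparison with primary cells, 2 were left when a probe set had to exceed the 60th percentile, because only En2 and Gbx2 stayed in, and 4 with values raised to the 40th percentile. Leaving out 1 array in turn left 4 to 5 members in each comparison. For Pax8 between DKK1-treated and primary cells, the call was lost in 11 of 18 alternatives (adjusted p 0.0219 to 0.328 over all 18), among them no filter (0.0649), the replicate block on 9 arrays (0.0746) and only the 6 arrays compared (0.102). Between DKK1-treated and untreated cells, 0 genes were called in the alternatives other than the fit without an intensity trend, which gave 1, and the replicate block on the 6 ESC-RPC arrays, which gave 65; the replicate block on 9 arrays gave 0. The block changed no call of a member other than that of Pax8. In that comparison the log2 difference over the arrays left out in turn ran from -0.22 to 0.15 for En1, from -0.11 to 0.030 for En2 and from -0.51 to 0.058 for Pax8, and over all alternatives from -0.75 to -0.38 for Gbx2 (adjusted p 0.0719 to 1) and from -1.09 to -0.49 for Egr2 (adjusted p 0.324 to 1), whose largest shift came without untreated replicate 3. Where no cause is named, the cause was not tested. Signal over background limits Pax5, which could not be tested, and the primary values of En1, En2 and Pax8, which are under the 40th percentile. With values raised to that percentile, En1 came to 1.08 in DKK1-treated and 1.13 in untreated cells against primary cells.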

Other observations

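The genes that flank the members on the chromosome, in the order of protein-coding genes on GRCm38.p6, were looked up after the members' values had been seen. En2 lies between Insig1, a regulator of sterol synthesis, and Cnpy1, and all 3 were higher in both ESC-RPC groups than in primary cells. Insig1 measured 5088 ± 336 in DKK1-treated, 5149 ± 116 in untreated and 1348 ± 317 in primary cells, a log2 difference of 1.96 between untreated and primary cells (limma adjusted p = 1.14e-06). Egr2 lies between Nrbf2, an autophagy factor, and Ado, a thiol dioxygenase, and Ado was lower than in primary cells too, at -0.89 in DKK1-treated (adjusted p = 4.07e-05) and -0.91 in untreated cells (adjusted p = 3.50e-05). Nrbf2 differed from primary cells by -0.16 in DKK1-treated (adjusted p = 0.107) and -0.28 in untreated cells (adjusted p = 0.0132). Over all genes, 26.1% were called higher and 26.9% lower in untreated than in primary cells, and 26% and 26.8% in treated cells. A direction shared with a neighbour is therefore only a description. Of the neighbours measured beside the other members tested, 0 passed in limma in either comparison with primary cells. Between untreated and primary cells, Insig2 beside En1 differed by 0.042 (adjusted p = 0.725), Agap1 beside Gbx2 by -0.016 (adjusted p = 0.948), and Psd4 and Cacna1b beside Pax8 by 0.52 (adjusted p = 0.341) and 0.23 (adjusted p = 0.379).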
